A study of Homo sapiens with 4 samples.

Results

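Potassium channel genes were taken as all features whose symbol starts with KCN, goes on with at least 1 more capital letter and ends in a number, which gave 95 of the 36601 features counted. They fell into 20 subfamilies. Of the 95 genes, 40 encode pore-forming subunits of voltage-gated channels (KCNA, KCNB, KCNC, KCND, KCNF, KCNG, KCNH, KCNQ, KCNS and KCNV), 12 encode auxiliary subunits of those channels (KCNAB, KCNE and KCNIP), 12 encode calcium- and sodium-activated channels, their beta subunits and the related KCNU1 (KCNMA, KCNMB, KCNN, KCNT and KCNU), 16 encode inward rectifiers (KCNJ) and 15 encode tandem-pore leak channels (KCNK). Antisense transcripts named after these genes carry longer symbols and were not members.

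Potassium channels set the resting potential of a cell and end its action potentials. Voltage-gated members open on depolarization, calcium-activated members produce the hyperpolarization that follows a spike, and inward rectifiers and tandem-pore channels hold the membrane near rest. In the enteric nervous system, which controls gut motility, the length of the after-hyperpolarization separates classes of myenteric neuron, and potassium channels of glia and muscle clear or respond to released potassium and nitric oxide.

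Nuclei came from enteric ganglioids, free-floating aggregates that hold enteric neurons and their progenitors, grown in suspension from H9 human embryonic stem cells by way of enteric neural crest and crestospheres. The control group had 2 samples and the PP121 group had 2 samples, the latter given the kinase inhibitor PP121 at 2 µM from day 15 to day 20, and both groups were otherwise kept in the same medium with GDNF and ascorbic acid. Each sample came from ganglioids of a single cell line and is labelled as a differentiation replicate; whether control and PP121 samples of the same number shared a differentiation is not given in the sources used here. In the deposited annotation, replicate 1 of both groups was collected on day 42 and replicate 2 on day 38, so day and replicate number cannot be told apart. The sample name inside the annotation differs from the label for both control samples (replicate 2 for the one labelled replicate 1, and a later culture stage for the one labelled replicate 2), and groups and replicate numbers follow the labels. The study asked whether PP121 raises the share of nitrergic neurons, which release nitric oxide to relax gut muscle.

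The annotation kept 2912 to 4587 nuclei per sample, with median depths of 6289 to 7071 unique molecular identifiers (UMIs) per nucleus, and at most 8 barcodes were shared by any pair of samples. Wherever 4 values are listed below for a class, their order is control replicate 1, control replicate 2, PP121 replicate 1, PP121 replicate 2. Enteric neurons numbered 2301, 1250, 2030 and 976, with 1291 to 2304 progenitors (Progenitor 1 and Progenitor 2 together), 33 to 422 mesenchymal, 9 to 37 epithelial and 60 to 211 unnamed nuclei per sample. The 11 neuronal markers summed to between 7822 and 10785 CPM, the usual scaling of a gene's UMIs by all UMIs of its class in that sample, in the neurons and to between 1368 and 1828 CPM in progenitors, and the 6 glial markers summed to 22.7 to 33.1 CPM in neurons. When each neuron and progenitor was placed again by the likelihood of its counts with the 95 genes left out, 17.6% and 23.4% of the deposited neurons of the controls and 6.75% and 11% of those of the PP121 samples went to the progenitors, so the tests of treatment and day are also given with these classes where the count of calls differs.

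Together the 95 genes held 258589 UMIs, and 93 of them had at least 1. Detection was uneven. In all, 86 had UMIs in every sample, 30 had fewer than 100 UMIs over all annotated nuclei, and KCNA6 and KCNA10, both of the Shaker type, had none, which allows at most 3 counts in the whole data set. The single highest gene held 16.1% of the members' UMIs, the 5 highest held 44.4% and the 10 highest held 63.7%.

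Potassium channel genes took the largest share of the transcriptome in enteric neurons. They made up 0.271%, 0.246%, 0.301% and 0.285% of neuronal UMIs. The corresponding means ± SD over the 4 samples were 0.211% ± 0.00775 in Progenitor 2, 0.104% ± 0.00858 in Progenitor 1, 0.134% ± 0.0352 in mesenchymal, 0.201% ± 0.0281 in epithelial and 0.209% ± 0.0185 in unnamed nuclei. The 4 neuronal values lay above the 8 progenitor values without overlap. With every nucleus thinned to 2000 UMIs, a neuron was expected to show 3.88, 3.51, 4.09 and 3.86 of the 95 genes in the 4 samples, a Progenitor 2 nucleus 2.79 to 3.05 and a Progenitor 1 nucleus 1.42 to 1.71, against unthinned medians of 8 to 9, 6 and 3. A sum over a class cannot tell apart a higher level in each nucleus from a larger share of nuclei that express a gene.

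**Figure D1:**
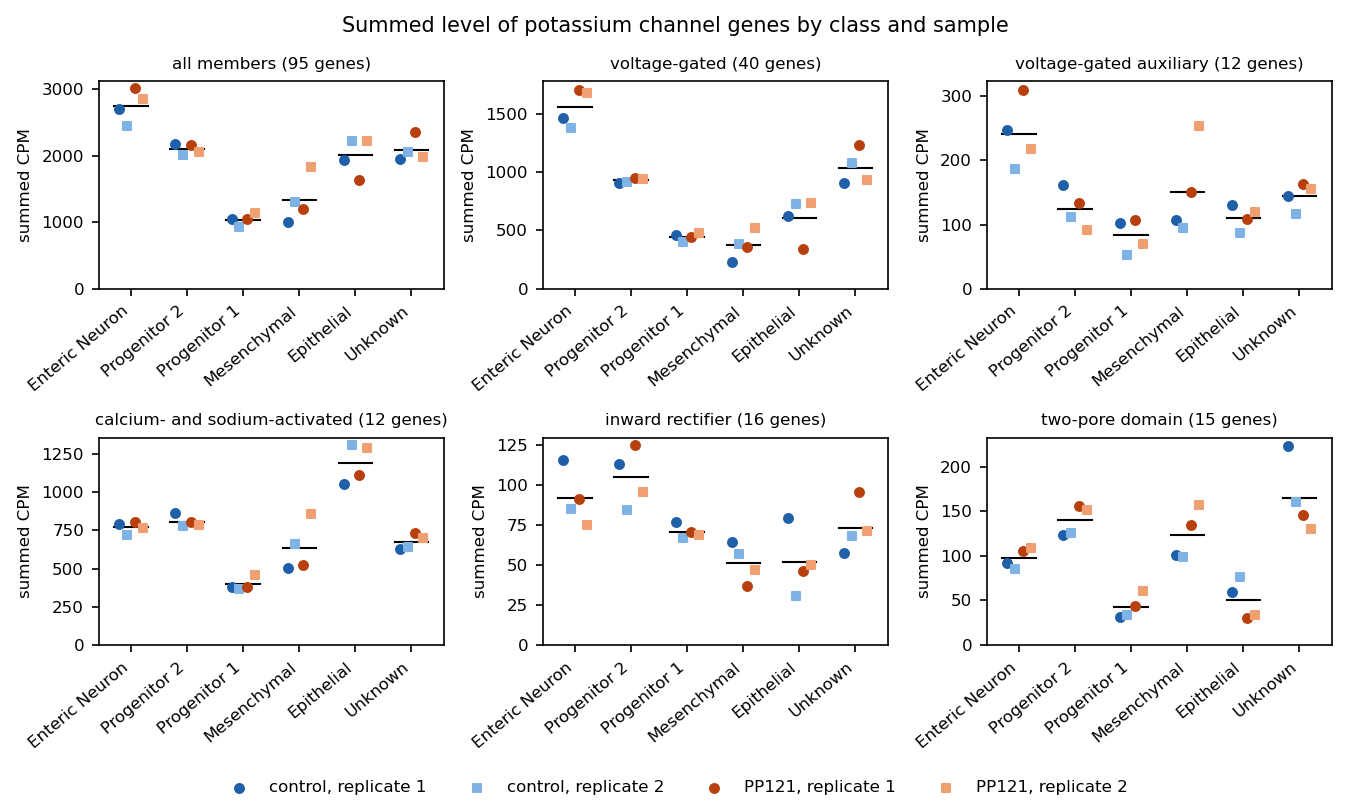
Summed level (CPM) of all 95 potassium channel genes and of each of the 5 families in the 6 deposited classes. Points are the 4 samples (blue for control, orange to brown for PP121; circles for replicate 1, squares for replicate 2) and bars are their means. Voltage-gated genes averaged 1555 CPM in neurons against 929 CPM in Progenitor 2 and 446 CPM in Progenitor 1, while tandem-pore genes averaged 97.9, 140 and 42.4 CPM.

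The families did not share this order. Pore-forming voltage-gated genes summed to 1377 to 1703 CPM in neurons and to 910 to 950 CPM in Progenitor 2, and their auxiliary subunits to 187 to 310 and 91.9 to 161 CPM. Calcium- and sodium-activated genes were at 722 to 806 CPM in neurons and at 777 to 864 CPM in Progenitor 2, ranges that overlap. Inward rectifiers summed to 74.9 to 116 CPM in neurons and 84.2 to 125 CPM in Progenitor 2, again overlapping, and tandem-pore genes were lower in neurons (85.4 to 109 CPM) than in Progenitor 2 (124 to 156 CPM) in every sample. Progenitor 1 was lowest of these 3 classes in every family.

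In enteric neurons, 31 genes reached 10 CPM and 8 reached 100 CPM. KCNT2, the sodium-activated channel also called Slick, was the highest in this unit, at 375, 357, 324 and 338 CPM. KCNH8 of the Elk type followed at 221, 246, 283 and 413 CPM, KCNB2, a delayed rectifier, at 221, 211, 298 and 287 CPM, and KCNH7 of the Erg type at 157, 180, 223 and 280 CPM. KCNH7 was below both others in every sample, and the order of KCNH8 and KCNB2 changed between samples. KCNQ3, a subunit of the M-current, was at 219, 192, 190 and 145 CPM. The remaining genes above 100 CPM were KCNMA1, the pore of the large-conductance calcium-activated channel, with 117 CPM ± 24.3 (SD, n = 4), KCND2, an A-type channel, with 114 CPM ± 46.1, and KCNIP4, which binds KCND channels, with 114 CPM ± 26.5.

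The order depends on whether gene length is taken into account. Over the 63 members of at least 1 CPM in neurons, the neuronal CPM and the length of the gene (GENCODE 29, GRCh38) had a Spearman correlation of 0.562, and the genes of at least 10 CPM had a median length of 218 kb against 55.5 kb for the 32 genes of 1 to 10 CPM. This correlation is across genes of one set of libraries and is a description. Per kb of gene, KCNJ13 (2.43 CPM per kb), an inward rectifier, ranked first and KCNMB4 (1.12 CPM per kb) second, with KCNT2 (0.908 CPM per kb) at rank 4 and KCNH7 (0.449 CPM per kb) at rank 15. Per kb of exon, KCNB2 (71 CPM per kb) ranked first, followed by KCNT2 (49.1 CPM per kb) and KCNH8 (47.3 CPM per kb). How introns and strand entered the counts is not given in the sources used here, and 59 of the 95 genes overlap another annotated gene, 46 of them on the opposite strand. KCNJ13 overlaps GIGYF2, KCNMB3 overlaps PIK3CA and KCNV2 overlaps PUM3, each on the opposite strand, so the levels of these 3 genes are uncertain. The same limit holds for the others of the 46. Among them, KCNH7 overlaps GCA and AC011900.1, KCNQ1 overlaps KCNQ1OT1, KCNC1 overlaps SERGEF and KCNIP4 overlaps PACRGL.

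Within the voltage-gated subfamilies, paralogs differed in their neuronal level. Of the 8 KCNA genes none reached 10 CPM, KCNA2 was the highest at 3.85, 3.25, 4.22 and 4 CPM in the 4 samples, and KCNA1 had 1, 0, 1 and 0 UMIs, at or under the 3 counts taken as the floor. Among the fast-spiking Shaw-type genes, KCNC1 was at 63.7, 55.2, 61.9 and 64.9 CPM and KCNC2 at 2.53, 0.451, 0.891 and 0.343 CPM. KCND3, an A-type channel like KCND2, was at 26.9, 36.5, 52 and 38.8 CPM.

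The Eag-related KCNH genes were the largest group in neurons by summed level, at 670 CPM ± 131 (SD, n = 4), and 6 of 8 reached 10 CPM. KCNH1 was at 107, 82.4, 104 and 55.1 CPM. The M-current gene KCNQ5 was at 4.27, 2.25, 3.74 and 3.43 CPM. Most silent subunits, which do not form channels alone, were low, with KCNF1 at 0.618 CPM ± 0.207, KCNS3 at 1.79 CPM ± 1.47, KCNG2 at 13.6 CPM ± 3.74 and KCNV2 at 13.3 CPM ± 3.09. The highest auxiliary subunits beside KCNIP4 were KCNIP1 with 93.7 CPM and KCNAB2 with 13.6 CPM ± 1.3, while KCNAB1 was at 6.54, 3.97, 5.23 and 2.4 CPM and KCNE1, the highest of 5 KCNE genes, at 1.75 CPM ± 0.201.

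Calcium-activated genes were led in neurons by KCNMA1, whose beta subunit KCNMB4, common in the nervous system, was at 62.7, 72.2, 71 and 98.6 CPM. Of the small-conductance channels, KCNN2 was at 108, 79.1, 124 and 55.1 CPM and KCNN3 at 17.7, 13.1, 12.1 and 15.9 CPM. KCNN4, the intermediate-conductance channel known for the slow after-hyperpolarization of enteric neurons, had 9, 4, 3 and 1 UMIs over all neurons, or at most 0.475 CPM. KCNT1, the paralog of KCNT2, was at 2.11, 2.34, 1.84 and 3.77 CPM, and the sperm channel KCNU1 averaged 2.62 CPM ± 1.32.

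Among inward rectifiers, KCNJ6, which G proteins open, was the highest at 66.1, 33.3, 46.8 and 28.1 CPM, and its partner KCNJ3 was at 3.54, 7.3, 3.92 and 6.28 CPM. KCNJ10, typical of glia, was at 2.44 to 2.95 CPM in neurons and did not exceed 5.93 CPM in a progenitor class. Tandem-pore genes were led by KCNK10 at 50.9, 57.5, 63 and 74.2 CPM. The acid-sensitive KCNK3 was at 13.2, 9.38, 13.5 and 9.02 CPM, its relative KCNK9 at 4.7, 3.16, 3.8 and 5.71 CPM, and the stretch-sensitive KCNK2 at 6.86, 2.98, 6.95 and 5.03 CPM.

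**Figure D2:**
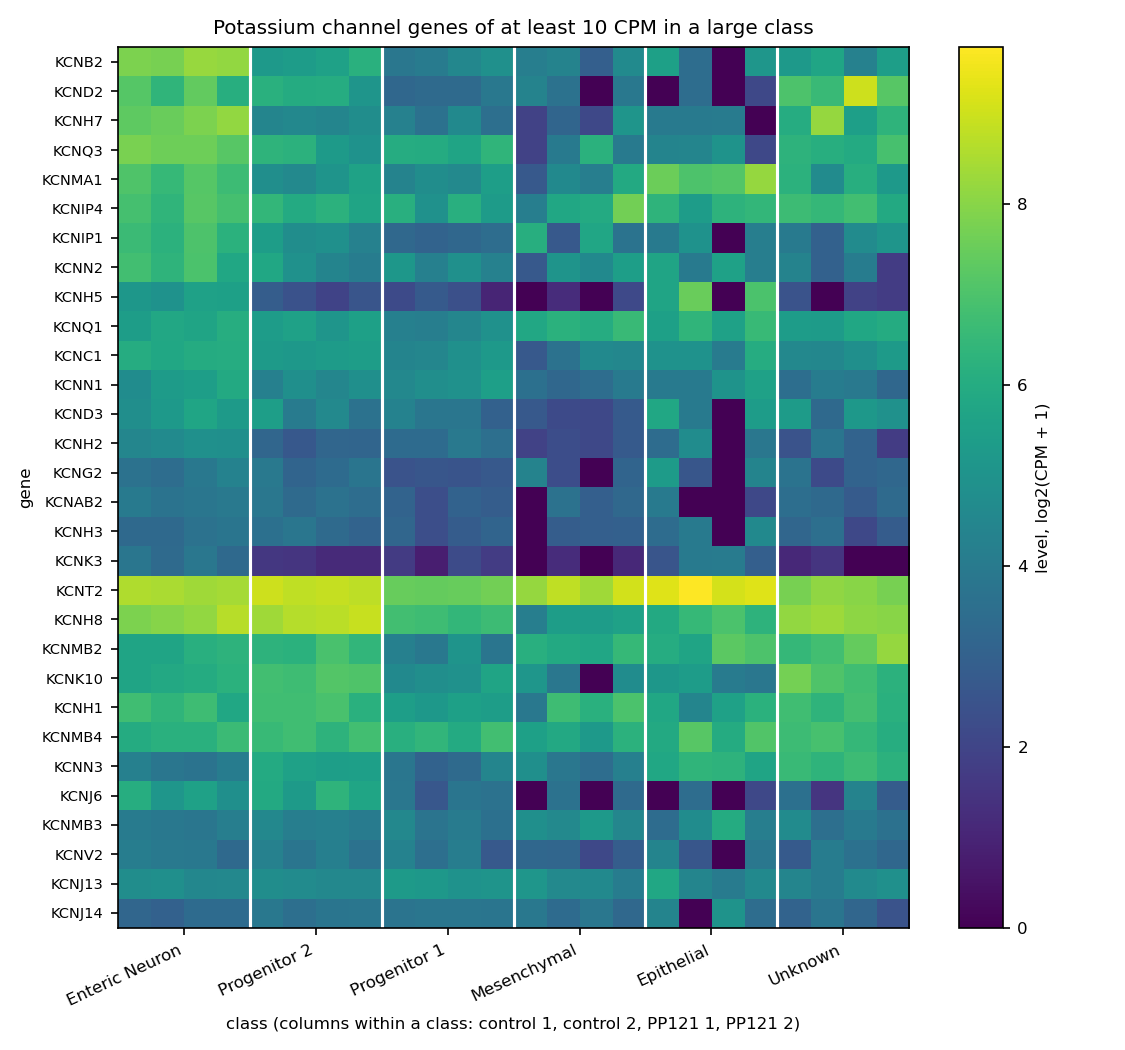
Level, log2(CPM + 1), of 30 of the 32 potassium channel genes with at least 10 CPM in neurons, Progenitor 1 or Progenitor 2. Each class has 4 columns (control replicates 1 and 2, PP121 replicates 1 and 2), and genes are ordered by the class of these 3 in which they were highest. Of the 30 genes shown, 18 were highest in neurons, 10 in Progenitor 2 and 2 in Progenitor 1, and epithelial and some mesenchymal columns rest on few nuclei.

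Mesenchymal nuclei had a pattern of their own. KCNK2 was at 30.8, 67.7, 97.6 and 111 CPM there, above its highest neuronal value of 6.95 CPM in every sample, and from 11, 245, 29 and 385 UMIs. KCNS3 reached 6.05 to 14.6 CPM, KCNE4 4.7 to 13.5 CPM and KCNK1 6.34 to 20.2 CPM, each above its range in the neurons. KCNH7 and KCNQ3 were low there, at 2.8 to 32.5 and 2.8 to 74 CPM. Control replicate 1 and PP121 replicate 1 gave 40 and 33 mesenchymal nuclei, so their values rest on few UMIs, and no test was made.

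The first comparison asked which potassium channel genes separate enteric neurons from progenitors within the same ganglioids. It was made on UMIs summed per sample with edgeR's quasi-likelihood test and the sample as a block, and p-values were adjusted over all genes tested. Of the 63 members that passed the filter on low counts, 30 were higher in neurons and 7 lower, or 58.7%, where 49.2% of all 20499 genes tested differed. The median log2 fold change was 0.66 over the members tested and -0.02 over all genes. The deposited classes were drawn from the same nuclei, so these calls describe the classes.

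**Figure D3:**
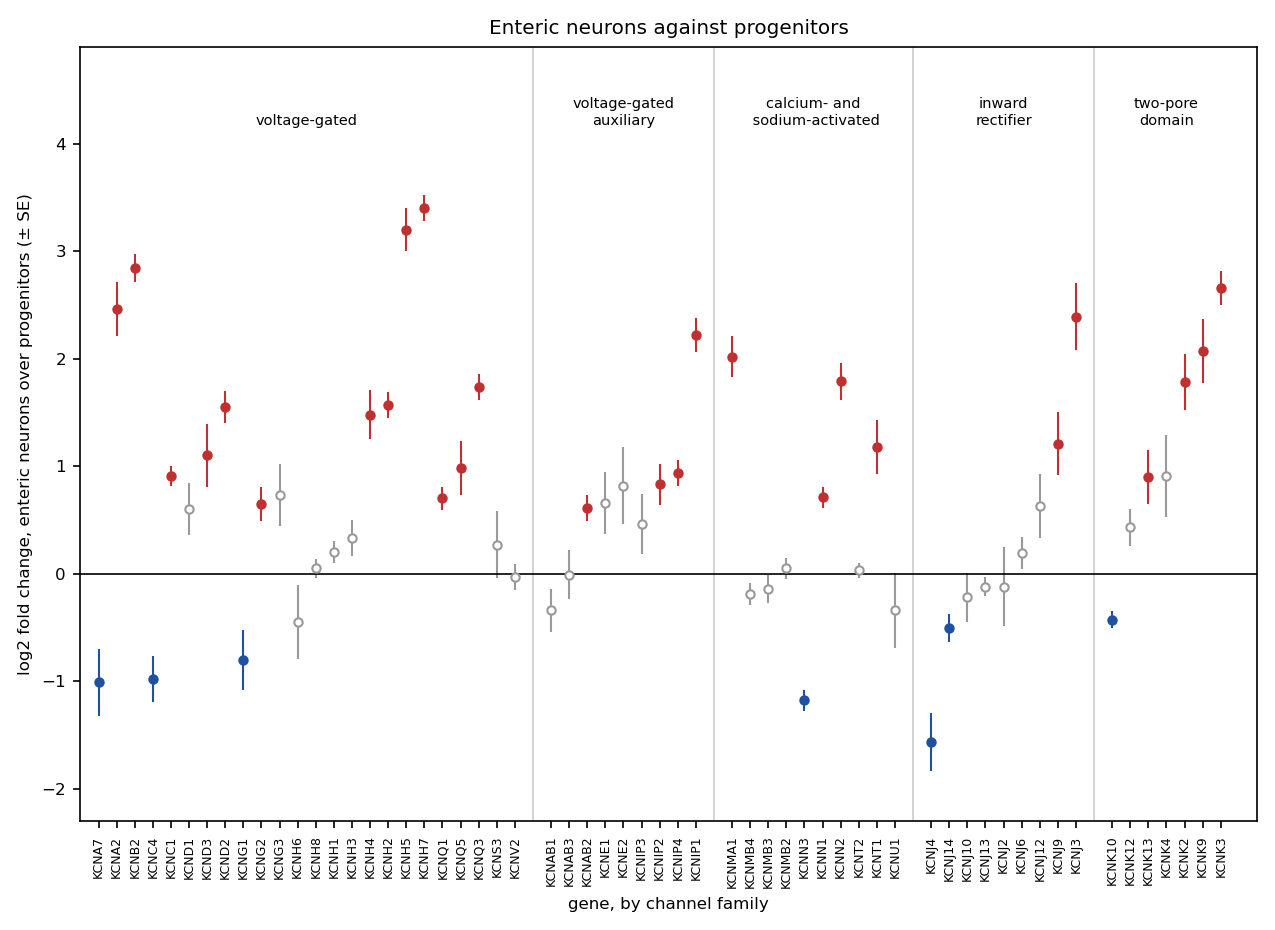
Log2 fold change of enteric neurons over progenitors (± SE, 4 samples) for 59 of the 63 potassium channel genes tested, by family. Filled red and blue points had an adjusted p under 0.05 (27 higher and 7 lower of those shown) and open points did not, and KCNH7 with 3.40 and KCNJ4 with -1.57 mark the ends.

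Voltage-gated genes were the largest family tested, with 16 of 28 higher in neurons and 3 lower, where 49.2% of all genes differed. KCNH7 was at 157, 180, 223 and 280 CPM in neurons against 19.9, 17.9, 21.7 and 21.2 CPM in progenitors of the same samples, a log2 fold change of 3.40 ± 0.12 (SE; adjusted p = 1.61e-08). KCNH5 of the Eag type was at 34.7, 30.4, 45.9 and 45.2 CPM against 5.51, 5.01, 3.48 and 3.68 CPM (3.20 ± 0.20; adjusted p = 3.69e-07). KCNB2 was at 211 to 298 CPM against 29.4 to 57.9 CPM (2.84 ± 0.13; adjusted p = 4.7e-08). None of these 3 genes, picked by a test on these same samples, overlapped between the classes in any sample.

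The M-current genes KCNQ3 and KCNQ5 rose by 1.74 ± 0.12 and 0.98 ± 0.25 on the log2 scale and KCNQ1, better known from heart and epithelium, by 0.70 ± 0.11. KCND2 and KCND3 rose by 1.55 and 1.10, and KCNC1 by 0.91. In the opposite direction, KCNC4, another Shaw-type gene, fell by 0.98 (adjusted p = 0.00244), and KCNA7 fell by 1.01 where KCNA2 rose by 2.46. KCNH8 (291 and 287 CPM on average) and KCNH1 (87.1 and 77.3 CPM) did not pass the test, with log2 fold changes of 0.05 and 0.20 (adjusted p of 0.687 and 0.109).

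Of the auxiliary subunits 4 of 9 tested rose and none fell. This count, and that of calcium- and sodium-activated genes below, are near the 49.2% of all genes that differed. They do not set these families apart. KCNIP1 was at 97.6, 75.9, 129 and 72.4 CPM in neurons against 31.3, 18.3, 19.2 and 15.6 CPM (2.22 ± 0.16; adjusted p = 1.05e-06), and KCNIP4 rose by 0.94 ± 0.12. Among calcium- and sodium-activated genes 4 of 10 rose, namely KCNMA1 (2.02 ± 0.19), KCNN2 (1.79 ± 0.17), KCNT1 (1.18 ± 0.25) and KCNN1 (0.71 ± 0.10). KCNN3 went the other way, with 17.7, 13.1, 12.1 and 15.9 CPM in neurons against 46.5, 29.9, 27.3 and 36.2 CPM in progenitors (-1.18 ± 0.10; adjusted p = 3.34e-06). Against the pooled progenitors, KCNN1 and KCNN2 thus moved the other way from KCNN3. By class, KCNN3 averaged 14.7 CPM in neurons, 12.6 CPM in Progenitor 1 and 48.7 CPM in Progenitor 2, so its fall was not against Progenitor 1. The beta subunits KCNMB2, KCNMB3 and KCNMB4 had values of 0.05, -0.14 and -0.19, none past the threshold, and KCNT2, the highest member, had 0.03 ± 0.07.

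Inward rectifiers were split, with KCNJ3 and KCNJ9, both G-protein-gated, higher in neurons (2.39 and 1.21) and KCNJ4 and KCNJ14 lower (-1.57 and -0.51). KCNJ9 and KCNJ4 averaged only 1.79 and 1.09 CPM in neurons, so both rest on few UMIs. KCNJ4 averaged 6.17 CPM in Progenitor 1 and 1.57 CPM in Progenitor 2. KCNJ14 was at 8.28, 7.21, 9.45 and 9.59 CPM in neurons and 11.8 to 13.3 CPM in progenitors, and it overlaps GRWD1 on the same strand. Of the tandem-pore genes 4 of 7 rose, where 49.2% of all genes differed. KCNK3 was at 9.02 to 13.5 CPM in neurons against 1.38 to 2.41 CPM (2.66 ± 0.16; adjusted p = 3.44e-07), and KCNK9 and KCNK2 rose by 2.07 and 1.78. KCNK10 fell by 0.43 ± 0.08 (adjusted p = 0.0015), and its ranges of 50.9 to 74.2 CPM and 71.1 to 105 CPM overlapped. Its neuronal mean of 61.4 CPM lay between those of Progenitor 1 (32.5 CPM) and Progenitor 2 (120 CPM).

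Under the classes placed by likelihood, 39 members were higher and 7 lower of 63 tested (73%, where 56% of all genes differed), and 36 of the 37 calls were kept with the same sign. DESeq2 called 35. Of 23 tested genes of a list of 26 that handle potassium or join channel complexes, 14 rose and 4 fell (49.2% of all genes differed). DPP6 and DPP10, which bind KCND channels, rose by 2.01 and 2.76, the chloride exporter SLC12A5 rose by 1.73, and SLC12A7, a cotransporter of the same family, fell by 1.21.

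The gene most like KCNH7 over the 24 sums of 6 classes in 4 samples was AC011900.1 (Pearson r of log2 values 0.920), a transcript that overlaps KCNH7 on the opposite strand. ZFHX4-AS1 (0.850) and OSBPL6 (0.835) came next among 18976 genes. The points share libraries and depth, so these are descriptions.

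Promoter sequence was read for members that moved apart in this comparison, as RefSeq gives it on GRCh38.p14. The table held starts for 71 of the 95 genes. The 250 bases before the start are shown 5′ to 3′ on the strand of the gene for KCNH5 and KCNK3, which were higher in neurons, and for KCNJ14, which was lower, each with a single start. Capitals mark the GC box GGGCGG or its reverse complement. KCNH5 is on the minus strand at chr14:63045459-63045708, KCNK3 on the plus strand at chr2:26692472-26692721 and KCNJ14 on the plus strand at chr19:48455324-48455573. The starts of RefSeq and GENCODE 29 differ. In GENCODE 29, KCNH5 spans chr14:62699454-63102037, so its window lies inside that span. The windows of KCNK3 and KCNJ14 reach past their GENCODE starts at 26692690 and 48455509.
KCNH5: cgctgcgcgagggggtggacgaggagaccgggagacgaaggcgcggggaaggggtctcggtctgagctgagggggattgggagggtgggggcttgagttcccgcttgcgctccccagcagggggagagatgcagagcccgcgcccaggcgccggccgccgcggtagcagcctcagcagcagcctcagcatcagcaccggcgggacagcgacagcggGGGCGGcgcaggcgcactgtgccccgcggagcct
KCNK3: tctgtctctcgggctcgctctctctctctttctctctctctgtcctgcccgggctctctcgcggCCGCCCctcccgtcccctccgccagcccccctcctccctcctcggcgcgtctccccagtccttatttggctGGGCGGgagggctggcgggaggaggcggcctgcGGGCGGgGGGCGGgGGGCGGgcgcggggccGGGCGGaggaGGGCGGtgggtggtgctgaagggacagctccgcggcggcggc
KCNJ14: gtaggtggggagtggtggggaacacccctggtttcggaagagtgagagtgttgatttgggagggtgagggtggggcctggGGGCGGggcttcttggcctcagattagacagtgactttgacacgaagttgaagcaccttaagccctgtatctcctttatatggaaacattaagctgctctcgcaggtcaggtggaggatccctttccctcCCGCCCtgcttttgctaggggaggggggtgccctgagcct

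KCNK3 held 7 GC boxes, KCNH5 held 1 and KCNJ14 held 2 in these windows, which were 76.4%, 74% and 57.2% G and C. The GC box was present in 48.6% of the members' 109 promoters and in 52.6% of the 38 promoters of members higher in neurons, against 42.6% of all 35116 promoters of this length. The TATA box (TATAAA), searched on both strands like the others, was in 8.26% of the members' promoters against 10.7% of all, and the E box (CANNTG) in 58.7% against 61.8%. The core letters of the RE1 element were in none of the members' promoters and in 0.0456% of all. These are matches of letters and no test was made on them.

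The comparison of the progenitor classes asked whether the channel genes separate Progenitor 1 from Progenitor 2. Of 49 members tested, 28 differed (57.1%, where 57.3% of all genes did), 22 of them higher in Progenitor 2. KCND2 was at 71.7, 61.8, 64.7 and 32.7 CPM in Progenitor 2 against 8.59, 9.28, 9.26 and 13.8 CPM in Progenitor 1 (-2.47 ± 0.23 for Progenitor 1 over Progenitor 2; adjusted p = 1.08e-06). KCNJ6 was at 38.5 to 79.8 against 5.27 to 13.4 CPM (-2.41 ± 0.15), KCNMB2 at 74.2 to 122 against 12.8 to 32.2 CPM (-2.21 ± 0.13), KCNN3 at 43.3 to 61.3 against 7.27 to 20.7 CPM (-1.99 ± 0.20) and KCNH8 at 323 to 476 against 85.4 to 108 CPM (-1.99 ± 0.13). Progenitor 2 was higher in all 4 samples for each of these 5 genes, which were picked by a test on these same samples.

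There were 6 members higher in Progenitor 1. KCNJ4, an inward rectifier of few UMIs, was at 4.8 to 8.53 CPM against 0.927 to 2.35 CPM (1.91 ± 0.35; adjusted p = 0.000408) with no overlap, and KCNAB1, a beta subunit of KCNA channels, at 4.93 to 13.8 against 2.93 to 5.68 CPM (0.81 ± 0.23; adjusted p = 0.00844), where the ranges overlapped. KCNJ13 was at 30.2 to 38.9 CPM against 22.1 to 26.3 CPM (0.55 ± 0.12; adjusted p = 0.00182), KCNH2 of the Erg type at 9.53 to 14.1 against 5.37 to 8.2 CPM (0.59 ± 0.20) and KCNN1 at 22.5 to 43.7 against 17.7 to 28.1 CPM (0.39 ± 0.14). For KCNN1 the ranges overlapped. KCNT2 and KCNH8, which did not separate neurons from the pooled progenitors, were higher in Progenitor 2 (437 to 506 and 323 to 476 CPM) than in Progenitor 1 (171 to 199 and 85.4 to 108 CPM). Neurons lay between the 2 progenitor classes for KCNT2, at 324 to 375 CPM, and overlapped Progenitor 2 for KCNH8, at 221 to 413 CPM. Of 21 tested genes that handle potassium or join channel complexes, 5 were higher and 7 lower in Progenitor 1 (57.3% of all genes differed), with DPP10 at -1.16 and DPP6 at -0.95 among the latter.

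The comparison of nitrergic with other neurons concerned the neurons that PP121 was meant to enrich. The deposited identity required NOS1 and a score over nitric oxide genes, both on imputed values, and held 449, 230, 358 and 91 neurons. Imputed values of these same nuclei set this and the other identities below, so the calls describe the deposited identities. Potassium channel genes made up 0.297%, 0.295%, 0.405% and 0.379% of the UMIs of nitrergic neurons and 0.265%, 0.237%, 0.283% and 0.279% of those of the other neurons, higher in nitrergic neurons of every sample. Of 53 members tested 12 were higher and 4 lower (30.2%, where 12.3% of all genes differed).

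KCNIP4 was at 197, 141, 320 and 261 CPM in nitrergic neurons against 93.9, 67.8, 107 and 104 CPM in the others (1.32 ± 0.11; adjusted p = 9.09e-06). KCNH5 was at 67.5, 44.2, 96.1 and 107 CPM against 26.8, 27.9, 33.9 and 38.2 CPM (1.33 ± 0.14; adjusted p = 6.33e-05). KCNMA1, a target of the nitric oxide pathway in smooth muscle, was at 191, 164, 278 and 185 CPM against 118, 76.5, 115 and 95.7 CPM (1.06 ± 0.11; adjusted p = 4.22e-05). For these 3 genes, picked by a test on these same samples, the ranges of the groups did not overlap.

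KCNH7 was higher in nitrergic neurons (225, 333, 414 and 421 CPM against 141, 148, 190 and 281 CPM; 0.95 ± 0.11), with ranges that overlap, and so was KCNJ3 (6.47 to 17.4 CPM against 2.39 to 6.28 CPM; 1.38 ± 0.25). KCND2 and KCND3 rose by 0.82 and 0.92 and KCNIP1 by 0.61, and their partners DPP6 and DPP10 rose by 2.23 and 2.11, and 5 of 20 genes of the partner list tested were higher and 1 lower. In KCND3, PP121 replicate 2 went the other way, with 29 CPM in its 91 nitrergic neurons against 38 CPM.

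Lower in nitrergic neurons were KCNN2 with 47.6, 69, 66 and 11.6 CPM against 123, 81.4, 142 and 61.8 CPM (-1.01 ± 0.19; adjusted p = 0.0033), KCNMB4 with 40.6 to 58 against 68.4 to 103 CPM (-0.65 ± 0.10), KCNN1 with 18.3 to 42.9 against 27.1 to 62.2 CPM (-0.65 ± 0.12) and KCNG2 with 5.65 to 16.3 against 11 to 19.5 CPM (-0.85 ± 0.21). Each of the 4 was lower in all 4 samples, which are the samples of the test that picked them. When nitrergic neurons were defined instead by at least 1 NOS1 UMI, which left 20 to 52 neurons per sample, none of 48 members tested differed, where 0.41% of all genes did. By edgeR 8 members had an unadjusted p under 0.05, a count without the share of all genes at that level. Under that definition KCNH5 had 0.65 and KCNIP4 0.53 with adjusted p of 0.339 and 0.309.

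**Figure D4:**
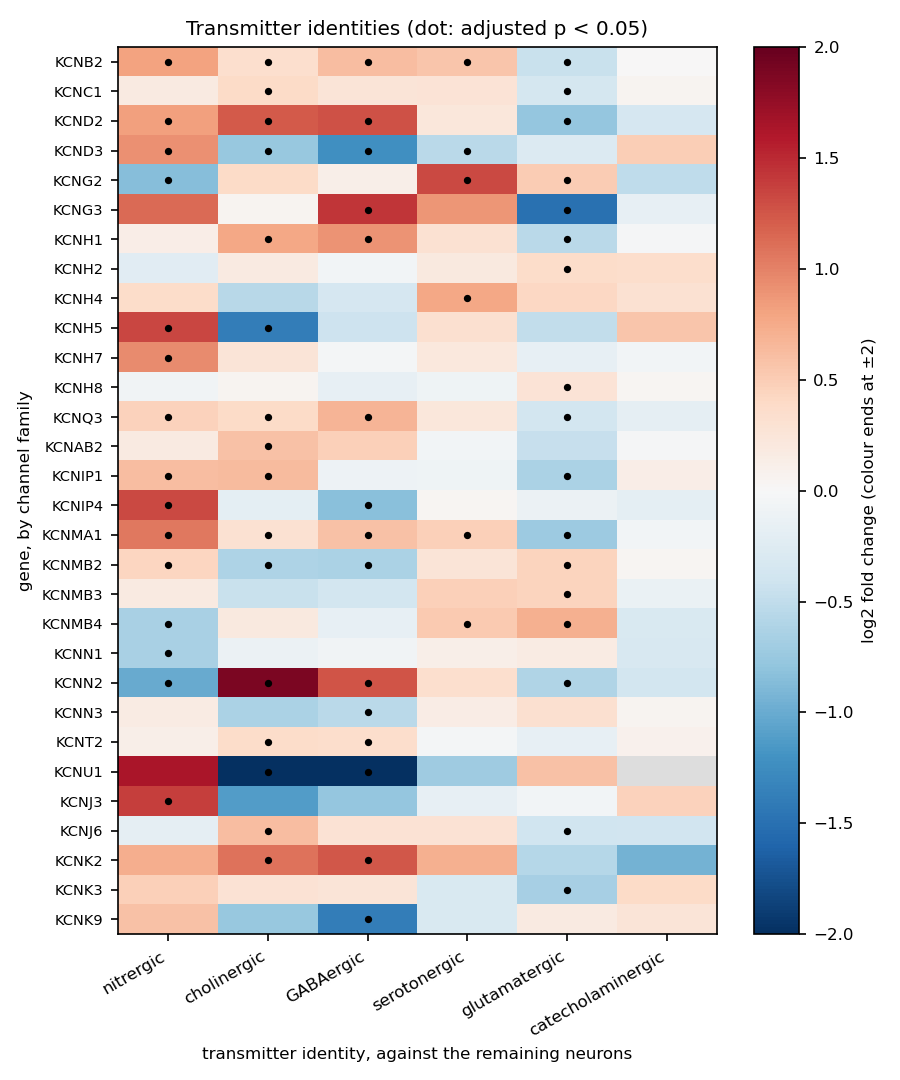
Log2 fold change of each of 6 transmitter identities over the remaining neurons for 30 of the 32 potassium channel genes that passed the test in at least 1 of them, ordered by channel family. Colours end at ±2, dots mark an adjusted p under 0.05 and grey marks a gene not tested. KCNN2 was higher in cholinergic and GABAergic and lower in nitrergic and glutamatergic neurons.

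The other 5 identities were compared in the same way, each with the remaining neurons. A neuron could carry several identities, so these comparisons share nuclei and are set side by side. Members called numbered 16 of 54 tested in cholinergic (29.6%, against 12.1% of all genes), 15 of 56 in GABAergic (26.8% against 8.11%), 19 of 53 in glutamatergic (35.8% against 15.7%), 6 of 53 in serotonergic (11.3% against 11.4%) and 1 of 50 in catecholaminergic neurons (2% against 4.99%). In all, 32 members were called in at least 1 of the 6 identities, 12 in at least 3, and 17 in both directions. No share of all genes is given for these pooled counts, so they do not set the members apart.

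Cholinergic neurons were marked by KCNN2, which was at 183, 194, 259 and 147 CPM against 70.5, 48, 57.7 and 46.3 CPM (1.88 ± 0.12; adjusted p = 9.41e-07). KCND2 was at 215, 156, 257 and 139 CPM against 103, 61.2, 122 and 64 CPM (1.22 ± 0.08; adjusted p = 9.84e-07), and KCNH1 rose by 0.77 ± 0.08, KCNIP1 by 0.64 and KCNJ6 by 0.62. KCNH5 was lower, with 20.2, 21.1, 14.4 and 5.03 CPM against 42.3, 33.5, 63.7 and 50.2 CPM (-1.39 ± 0.23; adjusted p = 0.00161), as were KCND3 (-0.76) and KCNMB2 (-0.62). KCND2 and KCND3, both A-type, moved in opposite directions here. The count of members was 9 without control replicate 1 and 10 without control replicate 2.

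GABAergic identity was carried by 1032, 329, 858 and 158 neurons. KCND2 was at 221, 113, 253 and 99.4 CPM against 64, 68.6, 93.4 and 65.6 CPM (1.28 ± 0.17; adjusted p = 0.00114), KCNN2 rose by 1.25, KCNH1 by 0.90, KCNQ3 by 0.68 and KCNB2 by 0.62. KCND3 was at 20.1, 21.2, 24.9 and 8.58 CPM against 33.7, 43.6, 83.1 and 43 CPM (-1.23 ± 0.18; adjusted p = 0.00223), KCNIP4 fell by 0.84, KCNMB2 by 0.63 and KCNN3 by 0.54. Without PP121 replicate 1 the count of members was 9.

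In glutamatergic neurons 7 members were higher and 12 lower. KCNMB4 was at 92.9, 95, 86.2 and 108 CPM against 52.1, 49.7, 58.9 and 71.2 CPM (0.71 ± 0.08; adjusted p = 8.09e-05), with KCNG2 (0.51), KCNMB2 (0.45), KCNMB3 (0.44) and KCNH2 (0.37) also higher. KCNMA1, the pore that KCNMB4 binds, was lower, at 81.6, 70.3, 122 and 87.4 CPM against 151, 115, 166 and 150 CPM (-0.72 ± 0.08; adjusted p = 8.46e-05), so pore and beta subunit moved apart. KCND2 (-0.78), KCNK3 (-0.66), KCNIP1 (-0.64) and KCNN2 (-0.60) fell as well. DESeq2 called 12 members in place of 19.

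Serotonergic neurons had higher KCNG2, at 21.5, 21.9, 22.1 and 26.7 CPM against 7.99, 6.93, 7.89 and 16.5 CPM without overlap (1.32 ± 0.18; adjusted p = 0.00498). KCNB2, KCNMB4 and KCNMA1 rose by 0.55, 0.53 and 0.48, and KCND3 fell by 0.54. The count of 6 went to 1 without control replicate 1, to 2 without control replicate 2 or PP121 replicate 1, and to 10 without PP121 replicate 2. In catecholaminergic neurons 1 member passed, by edgeR and by DESeq2. That count was 6 without control replicate 1 and 0 without control replicate 2 or PP121 replicate 1. With the sample left out as a block, members called fell to 3 for nitrergic, 4 for cholinergic, 5 for GABAergic and 0 for the other 3 identities. For the identities, no share of all genes is given for counts with a sample or the block left out.

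The comparison of PP121 with control asked whether the early treatment left a difference in channel genes. In enteric neurons none of 66 members passed the test without pairing (0% of all 21243 genes did), and DESeq2 called none. By edgeR 16 members had an unadjusted p under 0.05. The share of all genes at that level is not given, so this count does not set the members apart. Samples of the same replicate number deviated together (correlation 0.421 over all genes), and with the replicate number as a block 14 members were higher and 2 lower of the 66, or 24.2%, where 14.8% of all genes differed. The same block with classes placed by likelihood gave 6 higher and 3 lower of 65 members (13.8%, where 4.67% of all genes differed), 8 of them shared with the first set, and DESeq2 with the block called 5, all higher. Of 23 tested genes of the partner list none passed without the block, and with it DPP10 and SLC24A3 rose by 0.43 and 0.69 and HCN3 fell by 0.79.

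**Figure D5:**
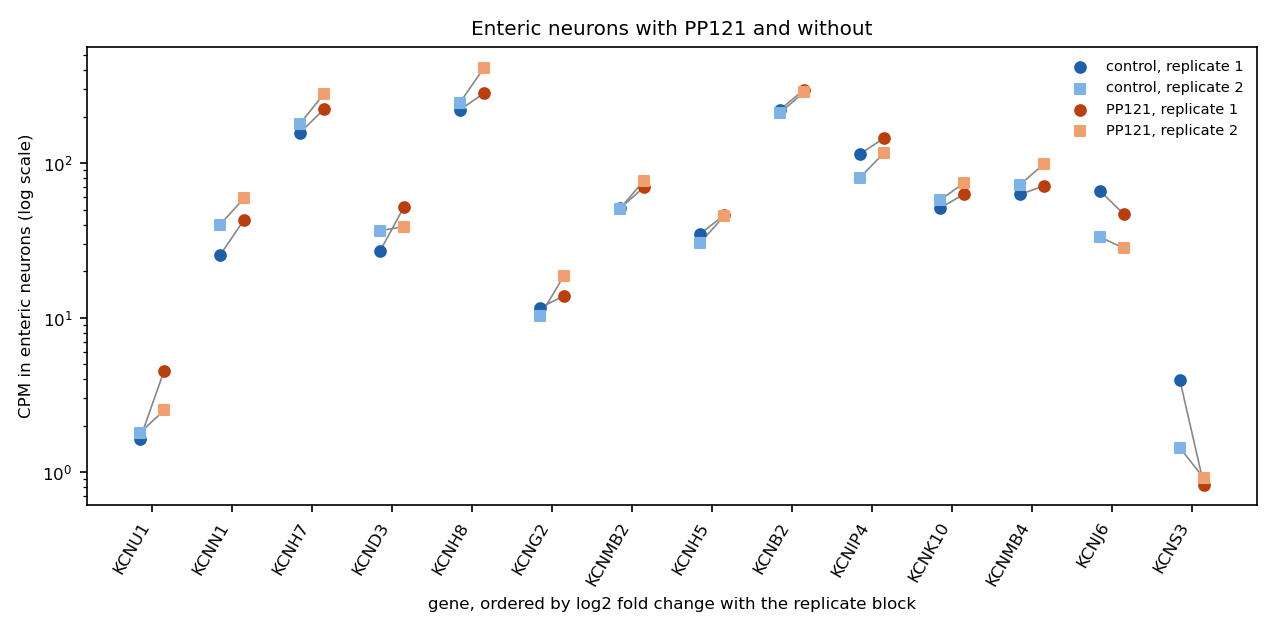
CPM in enteric neurons (log scale) of 14 of the 16 potassium channel genes that passed the PP121 test with the replicate number as a block. Lines join the control and PP121 samples of the same replicate number, with circles for replicate 1 and squares for replicate 2. Both pairs moved in the direction of the call for all 14 genes shown, which were picked by a test on these same pairs.

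KCNMB2 had the smallest p without pairing, with 50.9 and 50.7 CPM in the controls and 69.7 and 77 CPM with PP121 (0.57 ± 0.13; adjusted p = 0.377, and 0.000587 with the block). KCNH5 was at 34.7 and 30.4 CPM in controls and 45.9 and 45.2 CPM with PP121 (adjusted p = 0.377 and 0.00324), and KCNB2 at 221 and 211 CPM and 298 and 287 CPM (adjusted p = 0.377 and 0.000415). In these 3 genes, picked for the smallest p in the same samples, the groups did not overlap. KCNH5 had an adjusted p of 0.118 with the block under the classes placed by likelihood.

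KCNH7 (157 and 180 against 223 and 280 CPM), KCNH8 (221 and 246 against 283 and 413 CPM) and KCNN1 (25.3 and 39.9 against 42.9 and 59.2 CPM) rose with the block by 0.61, 0.59 and 0.70, with adjusted p of 2.94e-05, 8.9e-05 and 0.000131. These 3, with KCNB2, KCNIP4 and KCNMB2, were also higher with the likelihood classes. KCNJ6 fell by 0.35 with the block (66.1 and 33.3 against 46.8 and 28.1 CPM) and KCNS3 by 1.67 (3.96 and 1.44 against 0.832 and 0.914 CPM). The share of neurons moved by likelihood differed between the groups, and its part in these values was not tested beyond that alternative. Glutamatergic identity was carried by 571 and 546 neurons in controls, with 1714 and 688 without it. With PP121 it was carried by 683 and 605, with 1204 and 310 without it. KCNMB2 and KCNH8 were higher and KCNB2 and KCNJ6 lower in glutamatergic neurons. The part of the mix of identities in the PP121 values was not tested. The unpaired count changed when a PP121 sample was left out. Those fits keep a lone sample in that group and no share of all genes is given for them, so they do not set the members apart.

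In progenitors, none of 60 members passed without pairing (0% of all genes did), and DESeq2 called none. By edgeR 6 members had an unadjusted p under 0.05, again without the share of all genes at that level. With the replicate block KCNQ3 and KCNN2 fell (3.33%, where 1.72% of all genes differed). KCNQ3 was at 75 and 70.4 CPM in controls and 44 and 46.6 CPM with PP121 (-0.69 ± 0.19; adjusted p = 0.758 without and 0.0442 with the block), and the groups did not overlap. This gene was picked for a small p in the same samples. KCNN2 was at 48.2 and 24.6 CPM and 24.1 and 16.8 CPM (adjusted p = 0.869 and 0.0311). Under the likelihood classes with the block KCND3 fell too, giving 3 of 61 members (4.92%, where 3.63% of all genes differed).

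The PP121 difference was then compared between neurons and progenitors directly. No member of 65 passed (0% of all genes did), and DESeq2 called none. By edgeR 15 members had an unadjusted p under 0.05, a count without the share of all genes at that level. KCNH5 had the smallest p (1.09 ± 0.23 for the neuronal minus the progenitor log2 difference; adjusted p = 0.16), with 5.51 and 5.01 CPM in control progenitors and 3.48 and 3.68 CPM with PP121. KCNU1 (1.80 ± 0.43; adjusted p = 0.202) and KCNJ6 (-0.70 ± 0.19; adjusted p = 0.293) followed. Without the filter on low counts 6 members passed, a count without the share of all genes. The count also changed when a sample was left out, which leaves a lone sample in a group.

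Replicate 2 (day 38) was compared with replicate 1 (day 42) within the same data. In neurons none of 66 members passed without a term for treatment (0% of all genes), and DESeq2 called 1. By edgeR 13 members had an unadjusted p under 0.05, a count without the share of all genes at that level. With treatment as a term 6 members were higher and 10 lower in replicate 2 (24.2%, where 9.49% of all genes differed), and with the likelihood classes 5 were higher and 6 lower (16.9% against 5.28%), all 11 shared with the 16. The count without the term also changed when a sample was left out, which leaves a lone sample in a group. KCND2 was at 141 and 165 CPM in replicate 1 of control and PP121 and at 82.2 and 68.3 CPM in replicate 2 (-0.96 ± 0.16; adjusted p = 0.549 without and 4.79e-07 with the term). KCNJ6 was at 66.1 and 46.8 against 33.3 and 28.1 CPM (adjusted p = 0.597 and 2.91e-05), and KCNN2 at 108 and 124 against 79.1 and 55.1 CPM (adjusted p = 0.645 and 0.000123). The groups did not overlap in these 3 genes, which were picked for the smallest p in the same samples. Cholinergic identity was carried by 768 and 627 neurons in replicate 1, with 1517 and 1260 neurons without it. In replicate 2 it was carried by 252 and 93, with 982 and 822 without it. GABAergic neurons numbered 1032 and 858 in replicate 1 and 329 and 158 in replicate 2. KCND2 and KCNN2 were higher in both identities and KCNJ6 in cholinergic neurons. The part of this mix in the values by day was not tested. Mesenchymal nuclei numbered 40 and 33 in replicate 1 and 408 and 422 in replicate 2. The 13 mesenchymal markers, none at 0 in every sample, summed to 152 and 164 CPM in the neurons of replicate 1 and to 200 and 230 CPM in those of replicate 2, and in progenitors to 247 and 274 against 305 and 385 CPM. Their part in the differences by day was not tested. KCNJ3 was higher in replicate 2, at 7.3 and 6.28 against 3.54 and 3.92 CPM (adjusted p = 0.0135 with the term).

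In progenitors none of 60 members passed by day without the term (0% of all genes), and DESeq2 called none. By edgeR 8 members had an unadjusted p under 0.05, a count without the share of all genes at that level. With treatment as a term KCND3 was lower in replicate 2 (14.6 and 10.3 against 35.4 and 18.3 CPM; adjusted p = 0.00761), 1.67% of the members tested where 2.99% of all genes differed. With the likelihood classes as well, 4 were higher and 2 lower (9.84%, where 5.79% of all genes differed). KCNIP4, KCNV2 and KCNMB4 had the smallest p without the term, with log2 differences of -0.59, -0.62 and 0.51 and adjusted p of 0.349, 0.391 and 0.391. The count without the term changed when a sample was left out, which leaves a lone sample in a group, and no share of all genes is given for it. PP121 and day each rest on 2 samples a side, and the p-values measure only the spread between these samples.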

How the data were processed

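Single-nucleus libraries (Chromium 3′ chemistry) of 2 control and 2 PP121 samples were used. The authors deposited UMI counts per feature and nucleus with a table of classes and transmitter identities. Per the labels and the study's methods, reads were mapped to GRCh38 and nuclei were filtered, log-normalized and clustered in Seurat (the submitters' processing notes name Cell Ranger and Seurat 4.0.4, the study's methods kallisto and bustools, and which of them made the deposited counts is not settled), and identities came from imputed values and gene scores. How introns, strand and doublets were treated is not given in the sources used here. Nuclei the annotation marked as filtered were left out.

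The deposited counts were summed per sample and class or identity (23348045 to 34123759 UMIs per sample) and tested with edgeR 4.0.16 in R 4.3.3 (TMM, filterByExpr, quasi-likelihood test, Benjamini-Hochberg adjustment over all genes tested, threshold 0.05). Comparisons within samples had the sample as a block. PP121 was tested without a block, with the replicate number as a block as an alternative, because samples of the same number deviated together (r = 0.421 in neurons and 0.284 in progenitors over all genes) and the annotation gives them the same day. DESeq2 1.42.0, other filters, leaving out each sample or the 5% of nuclei with most UMIs, and classes placed by likelihood were further alternatives. On simulated counts, 100% of genes changed by a factor of 2 were recovered for neurons against progenitors (20604 genes) and 98.5% for PP121 in neurons (21223 genes). Whether the simulated spread matched that between these samples was not tested. The recovery therefore does not show that PP121 differences of this size would be found. On the real counts the unpaired fit in neurons called 0% of all genes.

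In each test up to 5 members per direction were named, by size of change among members called with at least 10 CPM in the higher group, or the 3 with the smallest p where none was called, and in the account of classes a list of 29 members plus the highest of each subfamily. Other members were named after their values were seen. Some genes that entered the fits and counts are not reported here by name. The members and lists were chosen with earlier results of these data known. Floors are 3 counts and cover counting error only. Gene lengths are from GENCODE 29 and promoters from RefSeq.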

Additional observations from a re-analysis of the deposited data

How the results depend on the processing

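No result changed direction under any alternative run. Of the results that count members, 90 values stayed within 1.5 times the main count, 24 were higher and 16 lower, and of the values for single named genes 591 kept their side of the threshold, 98 lost and 26 gained it. Leaving out 1 sample at a time gave 36 to 39 calls for neurons against progenitors, 22 to 28 for the progenitor classes, 12 to 19 for nitrergic, 9 to 14 for cholinergic, 0 to 6 for catecholaminergic, 1 to 10 for serotonergic, 13 to 16 for glutamatergic and 9 to 16 for GABAergic neurons. It gave 0 to 8 for PP121 in neurons, 0 in progenitors, 0 to 2 for their difference, and 0 to 1 and 0 to 4 for replicate 2 against replicate 1 in neurons and progenitors, where a lone sample is assumed to vary like the others. Without the sample as a block, calls went to 3 for nitrergic, 4 for cholinergic, 5 for GABAergic and 0 for catecholaminergic, serotonergic and glutamatergic neurons. With nitrergic neurons defined by at least 1 NOS1 UMI there were 0. DESeq2 called 12 for glutamatergic neurons and 1 for replicate 2 against replicate 1 in neurons. Without the filter on low counts there were 10 calls for catecholaminergic neurons, 1 for replicate 2 against replicate 1 in neurons and 6 for the difference of the PP121 effect between classes. Without the 5% of nuclei with most UMIs there were 2 for catecholaminergic and 10 for serotonergic neurons. No share of all genes is given for counts by DESeq2 or with a sample, the sample block, the filter or these nuclei left out. Such counts do not set the members apart.

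With the replicate block, PP121 gave 16 calls in neurons and 2 in progenitors, and with treatment as a term replicate 2 against replicate 1 gave 16 and 1. The difference of the PP121 effect kept 0 calls with the replicate block in place of the sample block. Chosen after seeing the data were the replicate block with the likelihood classes (9 in neurons, 3 in progenitors), DESeq2 with the replicate block (5 and 0), and the treatment term with the likelihood classes (11 and 6). The cause of these differences was not tested.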

Other observations

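Epithelial and unnamed nuclei entered no test. In the 25, 21, 9 and 37 epithelial nuclei (control replicate 1, control replicate 2, PP121 replicate 1, PP121 replicate 2), KCNT2 was at 608, 848, 542 and 606 CPM, above its highest neuronal value of 375 CPM in every sample. KCNMA1 was at 184, 127, 139 and 291 CPM there, and KCNQ5, low in neurons, at 59.8, 20.3, 46.4 and 33.5 CPM from 12, 4, 3 and 10 UMIs. KCNH5 was uneven, with 10, 36, 0 and 37 UMIs.

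In the 176, 60, 211 and 121 unnamed nuclei, KCNN3 was at 94.9, 79.3, 100 and 75.3 CPM, above its range in neurons and progenitors. KCNJ2, a strong inward rectifier, was at 15.1, 25.2, 35.6 and 27.7 CPM against at most 1.79 CPM in neurons. KCND2 was at 129, 95.5, 503 and 146 CPM, with PP121 replicate 1 the highest, and KCNK10 at 204, 133, 107 and 76.1 CPM.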
